A study of Arabidopsis thaliana with 6 samples.

Results

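Seed oil in Arabidopsis thaliana is held in oil bodies, and 10 genes for coating these bodies or for making their oil were followed here in siliques, the seed pods. They were OLEO1, OLEO2, OLEO3, OLEO4 and AT3G01570, which encode oleosins, CLO1 and HSD1, which encode other oil body proteins, and DGAT1, FAE1 and WRI1, which act in oil synthesis. They were taken as the rows of the count table whose locus identifier was on the list, with no cut on measured values. The list itself was chosen with earlier results of these data known. The genes were 10 of the 27628 loci in the table. All 10 passed the expression filter, as did 20827 loci in all. Siliques labelled with the triple genotype shp1 shp2 mrpl1 were compared with siliques of wild type (WT), with 3 libraries in each group. SHP1 and SHP2 are transcription factors of the valve margin, along which the silique opens, and MRPL1 is named for a protein of the mitochondrial ribosome. All plants grew under normal conditions on Murashige and Skoog medium with sucrose and phytoagar, in a long-day photoperiod. The labels give neither the age of the siliques, nor the alleles, nor whether the 3 libraries of a genotype stem from different plants. The p-values below therefore cover the spread among these libraries alone, part or all of which may be technical.

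Triacylglycerol, the storage oil of the embryo, is built in the endoplasmic reticulum from fatty acids made in the plastid, and buds off into droplets with a coat of protein. Oleosins are the main coat proteins and keep the droplets small and apart in the drying seed, caleosins bind calcium, and steroleosins carry a dehydrogenase domain. These genes belong to the seed maturation programme, which is under the control of LEC1, LEC2, FUS3, ABI3 and bZIP factors. RY elements and ACGT-containing elements in promoters are among the sequences through which this programme acts.

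The upstream sequences of the 4 genes with the smallest adjusted p-values in the comparison below are shown first, since these 4 include both directions of change. Each is the 250 bases before the annotated start, from the RefSeq TAIR10.1 assembly, written 5′ to 3′ on the strand of the gene. Capitals mark the RY element CATGCA and the core ACGTG, each searched on both strands. OLEO1 is read from chr4:12900180-12900429 on the plus strand, OLEO4 from chr3:10242994-10243243 on the plus strand, CLO1 from chr4:13475372-13475621 on the minus strand and HSD1 from chr5:20591938-20592187 on the minus strand.
OLEO1: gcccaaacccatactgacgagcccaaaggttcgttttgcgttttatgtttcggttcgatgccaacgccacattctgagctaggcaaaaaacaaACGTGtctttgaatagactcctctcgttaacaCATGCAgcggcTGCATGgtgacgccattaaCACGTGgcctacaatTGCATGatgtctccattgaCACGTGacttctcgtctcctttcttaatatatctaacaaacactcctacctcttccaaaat
OLEO4: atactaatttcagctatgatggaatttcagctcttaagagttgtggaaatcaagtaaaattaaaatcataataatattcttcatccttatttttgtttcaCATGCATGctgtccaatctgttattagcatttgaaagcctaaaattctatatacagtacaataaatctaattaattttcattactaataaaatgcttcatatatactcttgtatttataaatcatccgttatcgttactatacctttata
CLO1: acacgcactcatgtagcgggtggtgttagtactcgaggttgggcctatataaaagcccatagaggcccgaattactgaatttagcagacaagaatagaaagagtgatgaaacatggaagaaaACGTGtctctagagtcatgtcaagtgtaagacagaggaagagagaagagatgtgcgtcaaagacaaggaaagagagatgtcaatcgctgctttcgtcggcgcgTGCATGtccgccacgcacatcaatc
HSD1: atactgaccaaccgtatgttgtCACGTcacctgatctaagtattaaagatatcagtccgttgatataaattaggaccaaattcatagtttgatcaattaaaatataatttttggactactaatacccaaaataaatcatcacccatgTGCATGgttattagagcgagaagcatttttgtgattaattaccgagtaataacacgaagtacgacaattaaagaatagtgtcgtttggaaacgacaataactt

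OLEO1 held 3 RY matches, which lay 125, 114 and 80 bases before the start, and 5 ACGTG matches, of which 4 come from 2 CACGTG palindromes that match on each strand. In OLEO4 there were 2 RY matches, overlapping each other in CATGCATG, and no ACGTG. CLO1 and HSD1 each held 1 RY and 1 ACGTG match. An RY match was present upstream of 8 of the 10 genes, among them all 7 oil body genes and FAE1, against 8.34% of 27418 upstream regions of the same length in the genome. ACGTG was present in 5 of the 10, all of them oil body genes, against 23.1% of all regions. The AW box, a motif bound by WRI1 and spelled CNTNGNNNNNNNCG, was found in AT3G01570 and CLO1 but in none of the other 8, against 9.39% of all regions, and its matches are not capitalised above. DGAT1 and WRI1 held none of the 3 motifs in this window. HSD1, whose level was higher in the libraries labelled shp1 shp2 mrpl1, shared its motifs with genes whose levels were lower. A match describes letters in the window and is not evidence of binding.

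The libraries labelled shp1 shp2 mrpl1 held 20563995, 17857873 and 20957661 estimated counts in replicates 1 to 3, against 20883220, 21603816 and 19969915 counts in WT. Of the genes named in the genotype, SHP1 had 26.9, 31.5 and 28.4 CPM (counts scaled to a common library size) in the mutant-labelled libraries and 42.3, 37.5 and 43.5 CPM in WT, SHP2 had 106, 110.04 and 102 CPM against 110.09, 104 and 107 CPM, and MRPL1, taken as AT2G42710, had 16.3, 18.3 and 16.8 CPM against 15.1, 15.4 and 12.9 CPM. SHP1 was lower (log2 fold change −0.51, SE 0.087, edgeR adjusted p = 0.00242), SHP2 did not pass the test (−0.01, SE 0.065, edgeR adjusted p = 0.937), and neither did MRPL1 (0.24, SE 0.099, edgeR adjusted p = 0.172). The mutated sites are not given, and annotated genes on the other strand overlap SHP1 by 564 bases and SHP2 by 1756 bases, so the counts do not show the genotype at all 3 loci and the group is called by its label throughout. Replicate 1 stood apart in both groups: chi-square divided by its degrees of freedom was 9.19 and 7.73 for mutant-labelled replicate 1 against the other two, and 2.89 between those, while in WT it was 12.0 and 12.2 for replicate 1 and 2.55 between the others. Longer transcripts tended to lower fold changes (Spearman's rho = −0.25 over genes, which are no independent replicates), and rho was −0.45 without both replicates 1, −0.12 without mutant-labelled replicate 2 and −0.13 without WT replicate 2. In the main test 1018 genes were higher (4.89%), 847 were lower (4.07%) and 1865 differed in either direction (8.95%), at a Benjamini-Hochberg adjusted p under 0.05 in edgeR's quasi-likelihood test.

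Of the 10 seed oil genes, 5 fell and 1 rose in the libraries labelled shp1 shp2 mrpl1. The 5 were the oleosins OLEO1, OLEO4 and AT3G01570, the caleosin CLO1 and the elongation enzyme FAE1, with log2 fold changes between −0.25 and −0.35, and the steroleosin HSD1 rose by 0.37. OLEO2, OLEO3, DGAT1 and WRI1 did not pass the test. The median log2 fold change of the 10 was −0.21, with 9 of 10 below 0, while over all 20827 tested genes the median was −0.0016 and 50.3% were below 0. Levels of 7 of the 10 were lower in every mutant-labelled library than in every WT library, which held for 12.3% of all tested genes, and levels of 1 were higher in every one, which held for 13.7%. HSD1 was the 1 higher gene in each of the following settings. Without replicate 1 of both groups 6 of the 10 were lower, where 15.8% of all tested genes were lower, and after a correction for transcript length 8 were lower, where 7.47% of all were. Without mutant-labelled replicate 2 only 3 were lower, OLEO1, OLEO4 and CLO1, where 2.48% of all were. Annotated genes on the other strand overlap OLEO1 by 44 bases, AT3G01570 by 51 and OLEO2 by 15, and the strand setting of the counting is not known. In whole siliques, fewer seed cells and less RNA of these genes per cell cannot be told apart.

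**Figure D1:**
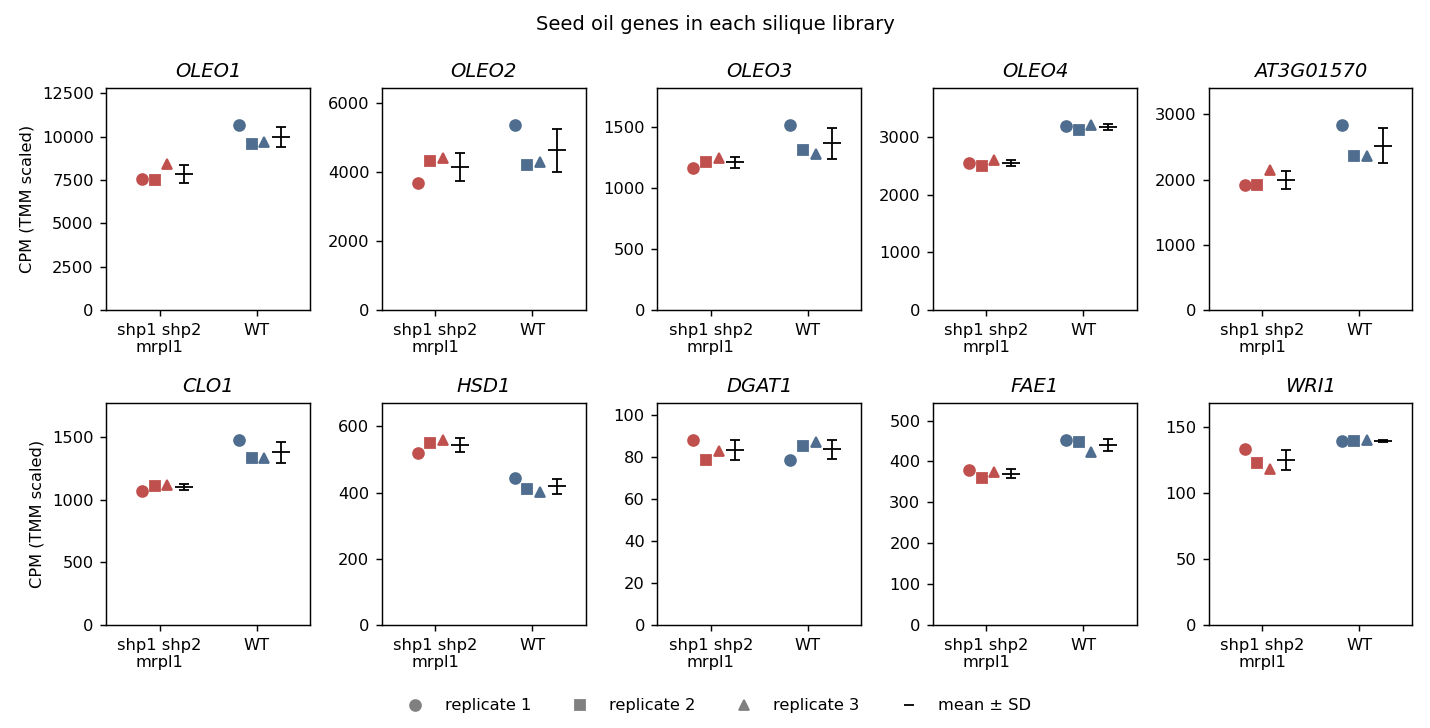
CPM after TMM scaling of each of the 10 genes in every library, with libraries labelled shp1 shp2 mrpl1 on the left and WT on the right. Marker shapes give the replicate number, and bars give the mean and SD of 3 libraries. OLEO1 lies at 7506 to 8438 CPM in the mutant-labelled libraries and at 9554 to 10651 CPM in WT, HSD1 is higher in all 3 mutant-labelled libraries, and the groups overlap for OLEO2 and DGAT1.

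OLEO1 (AT4G25140, chr4:12900430-12901577, plus strand, 2 exons), the most abundant oleosin transcript, had 7571, 7506 and 8438 CPM in mutant-labelled replicates 1 to 3 and 10651, 9554 and 9699 CPM in WT replicates 1 to 3. All mutant-labelled libraries lay below all WT libraries. The means were 7838 ± 520 CPM in mutant-labelled siliques and 9968 ± 596 CPM in WT (SD, n = 3 each), and the gene fell by 0.35 on the log2 scale (SE 0.065, edgeR adjusted p = 0.0045). Without both replicates 1 it was −0.27.

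OLEO4 (AT3G27660, chr3:10243244-10245023, plus strand, 2 exons), another seed oleosin, had the smallest spread of the oil body genes in both groups, relative to its mean. It had 2551, 2503 and 2597 CPM in the mutant-labelled libraries and 3196, 3115 and 3205 CPM in WT. The groups were well apart, with means of 2550.4 ± 47.0 and 3172 ± 49.4 CPM (SD, n = 3 each). The gene fell by 0.31 on the log2 scale (SE 0.053, edgeR adjusted p = 0.0020), and by the same 0.31 without both replicates 1.

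AT3G01570, annotated as an oleosin family protein (chr3:221939-222827, minus strand, 2 exons), had 1919, 1912 and 2149 CPM in the mutant-labelled libraries and 2833, 2366 and 2361 CPM in WT. WT replicate 1 was the highest library and the groups did not overlap. The means were 1993 ± 135 CPM in mutant-labelled siliques and 2519.8 ± 271 CPM in WT, and the gene fell by 0.34 on the log2 scale (SE 0.078, edgeR adjusted p = 0.0151). The call depended on one library: without mutant-labelled replicate 2 the change was −0.31 (edgeR adjusted p = 0.0764), and without both replicates 1 the change was −0.22, still past the threshold.

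OLEO2 (AT5G40420, chr5:16173340-16174783, minus strand, 2 exons), the second most abundant oleosin transcript, had 3677, 4342 and 4423 CPM in the mutant-labelled libraries and 5365, 4224 and 4314 CPM in WT. Replicate 1 was the lowest mutant-labelled library and the highest WT library, while the remaining mutant-labelled libraries lay just above the remaining WT libraries. The difference in means, 4147 ± 409 against 4634 ± 635 CPM, did not pass the test (log2 fold change −0.16, SE 0.095, edgeR adjusted p = 0.367). Without both replicates 1 the log2 fold change was 0.04, of the opposite sign.

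OLEO3 (AT5G51210, chr5:20820068-20820944, plus strand, 2 exons) had the lowest level of the 5 oleosins per length. Its values were 1165, 1217 and 1250.0 CPM in the mutant-labelled libraries and 1514, 1312 and 1278 CPM in WT. The groups did not overlap, but the gap between them was narrow, and WT replicate 1 stood above the rest. Its log2 fold change, −0.18 with an SE of 0.070, did not pass the test (edgeR adjusted p = 0.152), and was −0.07 without both replicates 1.

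CLO1 (AT4G26740, annotated as ATS1, chr4:13473516-13475371, minus strand, 6 exons) encodes a caleosin, a calcium-binding oil body protein with peroxygenase activity. It had 1075, 1113 and 1116 CPM in the mutant-labelled libraries and 1478, 1332 and 1335 CPM in WT. The groups did not overlap, with means of 1101 ± 22.8 CPM in mutant-labelled siliques and 1382 ± 83.1 CPM in WT (SD, n = 3 each). CLO1 fell by 0.33 on the log2 scale (SE 0.060, edgeR adjusted p = 0.00378), and by 0.26 without both replicates 1.

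HSD1 (AT5G50600, chr5:20589702-20591937, minus strand, 6 exons) encodes a steroleosin, a dehydrogenase of the oil body surface. It had 520, 551 and 558 CPM in the mutant-labelled libraries and 445, 410.1 and 402 CPM in WT. Every mutant-labelled library was above every WT library, which set it apart in direction from the other oil body genes. The means were 543 ± 20.4 and 419 ± 22.8 CPM (SD, n = 3 each), a level 1.30-fold higher (0.37 on the log2 scale, SE 0.063, edgeR adjusted p = 0.00193). Without both replicates 1 it was 0.45.

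The HSD1 value describes a pair of loci. AT5G50700, which lies 31086 bases away on the same strand, carries the same gene: all of the 50-base windows in the HSD1 transcript occur in it, its 250 upstream bases are identical at 250 positions, and the deposited counts of the pair are equal in 6 of 6 libraries. Reads of one locus therefore cannot be told from those of the other. With the counts of both loci summed, a choice made after seeing the data, the log2 fold change was again 0.37 (edgeR adjusted p = 0.00167).

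FAE1 (AT4G34520, annotated as KCS18, chr4:16494205-16495842, plus strand, 1 exon) encodes the condensing enzyme that lengthens fatty acids to the very long chains of seed oil. It had 379, 358 and 373 CPM in the mutant-labelled libraries and 452, 446 and 423 CPM in WT. No libraries of the groups overlapped. The means were 370.3 ± 10.9 and 441 ± 15.2 CPM (SD, n = 3 each), so that FAE1 fell by 0.25 on the log2 scale (SE 0.059, edgeR adjusted p = 0.0169). The call was lost without mutant-labelled replicate 2 or 3, or without WT replicate 2, at edgeR adjusted p-values of 0.0809, 0.0763 and 0.0825, with the change between −0.23 and −0.26.

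DGAT1 (AT2G19450, annotated as TAG1, chr2:8426117-8429853, plus strand, 16 exons) encodes the acyltransferase that adds the last fatty acid to triacylglycerol. Its values were 87.8, 78.3 and 82.7 CPM in the mutant-labelled libraries and 78.4, 84.9 and 86.9 CPM in WT, fully interleaved. The means were 83.0 ± 4.76 and 83.4 ± 4.45 CPM (SD, n = 3 each), and the log2 fold change was −0.01 (SE 0.073, edgeR adjusted p = 0.970). WRI1 (AT3G54320, chr3:20114684-20118627, plus strand, 8 exons), a transcription factor that switches on glycolytic and fatty acid synthesis genes in the seed, had 133, 123 and 118 CPM in the mutant-labelled libraries and 139.6, 139.4 and 140.3 CPM in WT. The WT libraries agreed closely and all mutant-labelled libraries were below them, but the log2 fold change of −0.16 (SE 0.066) did not pass the test (edgeR adjusted p = 0.173). Without both replicates 1 it did, at −0.21 (edgeR adjusted p = 0.00192).

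**Figure D2:**
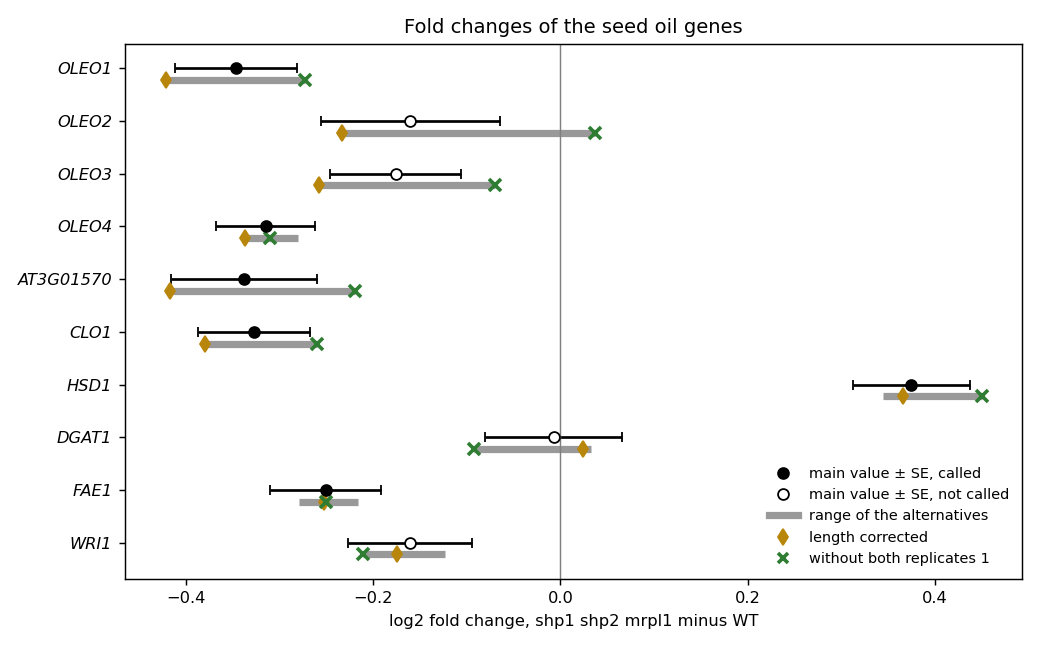
Log2 fold change of each gene, mutant-labelled minus WT, with its standard error. Filled points passed the test, grey bars give the range over the alternative settings, diamonds the value after a correction for transcript length and crosses the value without both replicates 1. HSD1 alone lies to the right of 0 with its whole range, and the ranges of OLEO2 and DGAT1 include 0.

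Levels of different genes are compared only per length, as CPM per kilobase of the longest annotated transcript. In WT siliques OLEO1 stood at 10978 ± 657 CPM per kilobase, rank 9 among loci with an annotated length, and OLEO2 at 5010.0 ± 686. AT3G01570 followed at 3096 ± 333, OLEO4 at 2290.4 ± 35.7, OLEO3 at 1783 ± 166 and CLO1 at 1249 ± 75.2 CPM per kilobase (SD, n = 3). These 6 encode oleosins and a caleosin, and the remaining 4 genes lay below them. HSD1 stood at 270.4 ± 14.7, as counted at 1 of its 2 identical loci, and at 541 ± 29.5 with the counts of both loci summed, and FAE1 stood at 269 ± 9.26 CPM per kilobase in WT. WRI1 at 71.2 ± 0.250 and DGAT1 at 36.6 ± 1.95 CPM per kilobase were lowest. In mutant-labelled siliques the order of the first 6 was the same, at 8632 ± 573 for OLEO1, 4484 ± 442 for OLEO2, 2449 ± 166 for AT3G01570, 1841 ± 33.9 for OLEO4, 1579 ± 55.8 for OLEO3 and 996 ± 20.6 for CLO1. HSD1 was at 351 ± 13.2 there as counted at 1 locus and at 701 ± 26.3 with both summed, and FAE1 was at 226 ± 6.63 CPM per kilobase.

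Within the oleosins the proportions were similar in both groups. Together the 5 had 17740.0 ± 1012 CPM in mutant-labelled siliques and 21662 ± 1649 CPM in WT (SD, n = 3 each). Of their summed CPM per kilobase, OLEO1 made up 45.5% ± 1.11 in mutant-labelled siliques and 47.5% ± 0.934 in WT, and OLEO2 made up 23.6% and 21.6%. OLEO3 had a slightly larger part in mutant-labelled siliques, 8.32% ± 0.229 against 7.70% ± 0.174 in WT. CLO1 had 14.1 ± 0.803 CPM per 100 CPM of OLEO1 in mutant-labelled siliques and 13.9 ± 0.089 in WT. HSD1 departed from these proportions, at 6.94 ± 0.367 CPM per 100 CPM of OLEO1 in mutant-labelled siliques and 4.20 ± 0.080 in WT. HSD1 was counted here without its copy AT5G50700, which has equal counts. The ratios of CLO1 and HSD1 to OLEO1 are not per length, so they compare the groups and not the levels of the genes.

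Within each group most of the oil body genes had the same highest library. Mutant-labelled replicate 3 was the highest of its group for 7 of the 7 oil body genes, and WT replicate 1 was the highest of its group for 6 of the 7. Mutant-labelled replicate 1 was lowest for 4 and replicate 2 for the other 3, and WT replicate 2 was lowest for 4 and WT replicate 3 for 3. The share of all tested genes with these ranks was not computed, so the pattern is not shown to be particular to the oil body genes. The pattern shared over the 6 libraries was scored as Pearson's r with the mean standardised profile of the 7 genes, a description with no test, over libraries that share a group structure. Of 13931 other genes, the closest were ATAF1, a NAC transcription factor (r = 0.997), the DnaJ domain gene AT1G21080 (0.996), the auxin response repressor IAA11 (0.994), AT1G54860, annotated as a GPI-anchored glycoprotein (0.994), and the proline-rich family gene AT5G45350 (0.994). Of these, AT1G54860 was lower (361 ± 27.0 CPM in mutant-labelled siliques and 453 ± 49.4 CPM in WT, log2 fold change −0.33, SE 0.082, edgeR adjusted p = 0.0245), and the other 4 were not called. HSD1 itself had r = −0.61 with this profile, although it is one of the 7.

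Markers of the maturing embryo moved in the same direction as the oleosins. Of 11 storage protein and late embryogenesis genes, 6 were lower, 1 was higher and 4 were not called, with a median log2 fold change of −0.25. All of them had counts. The share called was 63.6%, against 8.95% of all tested genes. Their summed level was 147427 to 158118 CPM in mutant-labelled libraries and 182687 to 193067 CPM in WT, and their share of all counts was 15.3% ± 0.383 and 18.5% ± 0.440 (SD, n = 3 each). The one that rose was EM6, a late embryogenesis protein gene, with 275, 381 and 342 CPM in mutant-labelled libraries and 154, 111 and 113 CPM in WT (log2 fold change 1.40, SE 0.150, edgeR adjusted p = 0.00049). Each oil gene was therefore also set against the summed embryo markers of its own library.

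The embryo marker sum is the same for every gene of a library and was lower in the mutant-labelled libraries. Dividing by it therefore raised every difference by nearly the same amount and left the gaps between genes nearly unchanged. The values below thus single out no gene beyond its change in CPM. On this within-library scale the differences of 5 of the oil genes lay near 0, and those of HSD1 and DGAT1 were larger than on the CPM scale. The mutant-labelled minus WT difference in the log2 ratio was −0.05 for OLEO1, −0.01 for OLEO4, −0.03 for AT3G01570, −0.03 for CLO1 and 0.05 for FAE1, with exact permutation p-values of 0.3, 0.8, 0.9, 0.5 and 0.2 (two-sided, 20 assignments of 3 against 3, where the smallest possible p is 0.1). OLEO2, OLEO3 and WRI1 were at 0.14, 0.13 and 0.14. HSD1 was at 0.68, with ratios of −8.17, −8.06 and −8.15 in mutant-labelled libraries and −8.76, −8.82 and −8.83 in WT, and DGAT1 was at 0.29. For both the groups did not overlap and the exact permutation p was 0.1, the smallest this design allows. DGAT1 separated only on this scale, since its CPM overlapped between the groups (log2 fold change −0.01). The share of all tested genes that separate on this scale was not computed, so the separation is not particular to these genes. After Benjamini-Hochberg adjustment over the 10 genes no p was below 0.4.

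**Figure D3:**
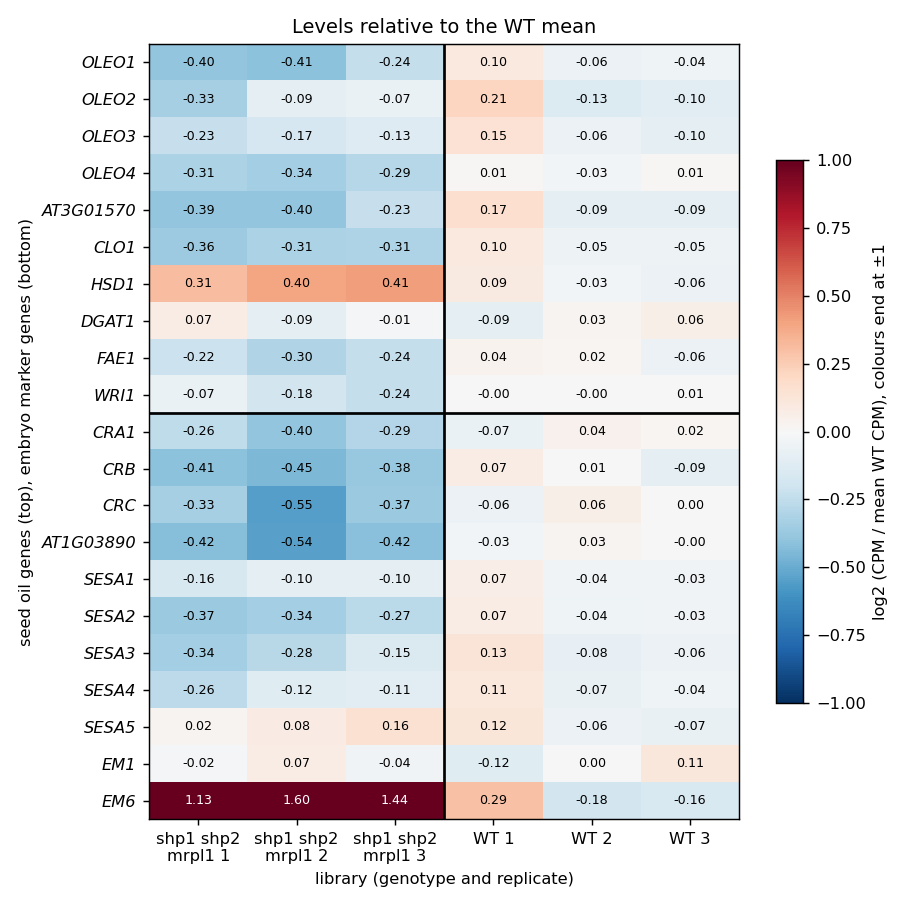
Heat map of log2 CPM relative to the WT mean, with libraries in columns, the mutant-labelled ones on the left, and the 10 seed oil genes above the 11 embryo markers. Most rows of both blocks are below 0 in the 3 mutant-labelled columns, whereas HSD1, SESA5 and EM6 are above 0 in all 3, and EM6 runs past the end of the colour scale.

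Markers of the other silique tissues also differed between the groups. The shares called were 44.4% of tested seed coat, 33.3% of wall, 42.9% of endosperm and 40% of tapetum genes, against 8.95% of all. Of 9 seed coat genes 4 were higher and none lower, with summed levels of 2557 to 2664 CPM in mutant-labelled libraries and 2181.7 to 2257 CPM in WT. Of 6 silique wall and green tissue genes 1 was higher and 1 lower, with sums of 5871 to 6508 CPM and 5281 to 5656 CPM. Most of the sum came from the photosynthesis genes CAB1, the higher gene (2254 ± 179 and 1825 ± 104 CPM), and RBCS1A, which was not called. The lower gene was FUL (35.8 ± 3.69 and 44.1 ± 2.30 CPM, log2 fold change −0.30, edgeR adjusted p = 0.0477). The sum therefore does not measure the silique wall. Of 7 tested of 9 endosperm genes 2 were higher and 1 lower, with sums of 528 to 554 CPM in mutant-labelled libraries and 561 to 586 CPM in WT. Most of that sum was BETA-VPE (476 ± 8.10 and 531 ± 13.4 CPM), which was not called. The 2 higher genes, ZOU and ALE1, had log2 fold changes of 0.63 and 0.87. The 1 lower gene, PHE1, had −1.14 (edgeR adjusted p = 0.00519), at low levels of 2.64 ± 0.948 and 5.81 ± 0.647 CPM. Of 5 tested of 9 tapetum and pollen coat genes, where other oleosins are made, 2 were higher, with sums of 42.0 to 43.6 CPM and 31.4 to 37.4 CPM, and EXL6 was at 0 in every library. GRP17, which was not called, made up most of these sums (23.5 ± 0.678 and 23.7 ± 3.16 CPM). The part of these tissues in the levels of the oil genes was not tested.

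Among 21 other oil body and lipid droplet genes, 19 were tested, 1 was higher and 4 were lower, with a median log2 fold change of −0.02. The share called was 26.3% of those tested, against 8.95% of all tested genes. HSD6, another steroleosin gene, had 116.0, 123 and 116 CPM in mutant-labelled libraries and 161, 152 and 178 CPM in WT. It fell by 0.47 on the log2 scale (SE 0.073, edgeR adjusted p = 0.00126), opposite to HSD1. The caleosin gene ATPXG2, also known as CLO2, fell by 0.35 (SE 0.060, edgeR adjusted p = 0.00245), as CLO1 did. The other listed caleosin genes CLO3 (0.21), CLO4 (−0.02) and AT1G70680 (0.09) were not called, nor was the oleosin family gene AT2G25890 (0.14). The other genes that fell, named after their values were seen, were the oleosin family genes AT3G18570 and AT1G48990, at −0.31 and −0.29, and the one that rose was AT5G50700, the copy of HSD1.

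In triacylglycerol assembly, 1 of 21 genes was higher and 4 were lower, with a median of −0.03. That is 23.8% called, against 8.95% of all tested genes, and for the higher direction alone 4.89% of all were called. FAD3, the desaturase that makes linolenic acid, had 803, 795 and 817 CPM in mutant-labelled libraries and 1089, 1066 and 1042 CPM in WT, with no overlap. It fell by 0.41 on the log2 scale (SE 0.054, edgeR adjusted p = 0.00041). AT3G44830, of the lecithin:cholesterol acyltransferase family, fell by 0.37 (SE 0.079, edgeR adjusted p = 0.0104), and LACS1, a long-chain acyl-CoA synthetase gene, rose by 0.29 (SE 0.063, edgeR adjusted p = 0.0114). The genes that supply the fatty acids showed no call in the main test. None of 41 genes of plastid fatty acid synthesis and carbon supply passed edgeR's adjusted threshold, although 9 lay under 0.05 before adjustment. DESeq2 likewise called 0. Limma voom called 3 higher and 6 lower, in a setting where 10.3% of all tested genes were higher and 9.54% lower. Their median was 0.01. After both replicates 1 were left out 6 were higher and 11 lower, in a setting where 15.3% of all tested genes were higher and 15.8% lower. The transcript length correction called 1 higher and 5 lower, where 8.5% of all tested genes were higher and 7.47% lower. Of the 4 other elongation genes edgeR called 0, DESeq2 0 and limma voom 1, with 1 at an unadjusted p under 0.05 and a median of 0.07.

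Regulators of seed maturation and oil went both ways, with 3 of 21 higher, 3 lower and a median of −0.05. Calls made up 28.6% of them, against 8.95% of all tested genes. Among those named at the start, LEC1 was higher (log2 fold change 0.29, SE 0.079, edgeR adjusted p = 0.0366). LEC2 (0.07), FUS3 (−0.06) and ABI3 (−0.37, edgeR adjusted p = 0.0789) did not pass the test. DPBF2, a bZIP factor also known as bZIP67, had 62.8, 65.1 and 67.2 CPM in mutant-labelled libraries and 91.1, 88.5 and 86.5 CPM in WT, and fell by 0.45 on the log2 scale (SE 0.067, edgeR adjusted p = 0.00096). MYB118, a repressor of maturation in the endosperm, had 43.8, 45.0 and 42.4 CPM against 31.1, 33.5 and 30.5 CPM, and rose by 0.47 (SE 0.074, edgeR adjusted p = 0.00145). VAL2, a B3 domain repressor of the embryo programme that binds RY elements, fell by 0.45 (SE 0.101, edgeR adjusted p = 0.0125), and a gene on the other strand overlaps it by 104 bases.

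Oil breakdown had 1 of 18 genes higher and 1 lower, with a median of 0.05. This share of 11.1% was near the 8.95% called over all tested genes, so the counts show no change of the pathway. MLS, the malate synthase of the glyoxylate cycle, which turns stored oil into sugar in the seedling, had 99.5, 93.5 and 96.5 CPM in mutant-labelled libraries and 60.2, 60.7 and 62.0 CPM in WT. Its rise of 0.66 (SE 0.066, edgeR adjusted p = 4.4e-05) was the largest among the genes of these 6 pathway lists. AT3G14360, an alpha/beta-hydrolase family gene, fell by 0.43 (SE 0.070, edgeR adjusted p = 0.00158), and an annotated gene on the other strand overlaps it by 324 bases.

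**Figure D4:**
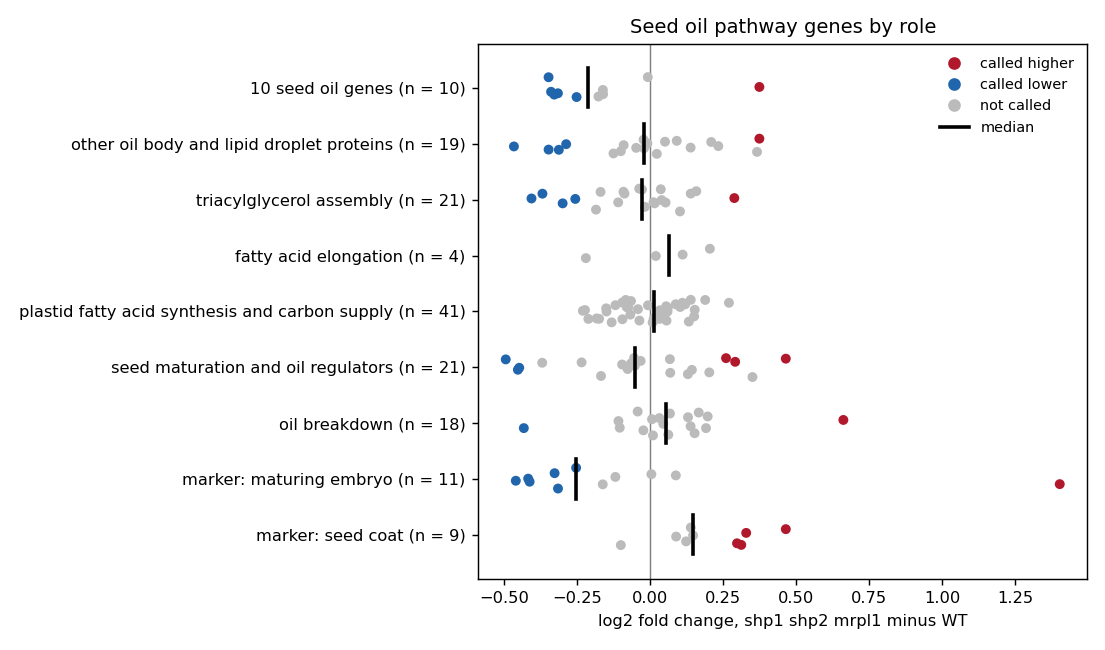
Log2 fold changes, mutant-labelled minus WT, of the 10 seed oil genes, of the other genes of each pathway list and of the embryo and seed coat markers, 1 point per gene, red where higher by the test, blue where lower and grey where not called, with a bar at each list's median. The 10 genes have a median of −0.21, the medians of the 6 pathway lists lie between −0.05 and 0.07, and those of the embryo and seed coat markers are −0.25 and 0.15.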

How the data were processed

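RNA of siliques was sequenced in 6 libraries, grouped by the genotype and titles in the labels. The authors deposited 1 estimated count per locus and library, of which 2.95% to 3.47% per library were not whole (tolerance 1e-09), and the values were rounded. Tools named in the submitters' processing notes, with no role, are featureCounts 1.6.3, HISAT2, DESeq2, FastQC 0.11.9 and Trimmomatic 0.39. The build, the annotation, any strand setting and the division of multi-mapping reads are not given in the sources used here. Among 27628 identifiers, 27419 matched the RefSeq TAIR10.1 annotation, the source of names, lengths and coordinates.

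Genotype was fitted as the only term with edgeR 4.0.16 in R 4.3.3, with TMM scaling, the default filter (minimum count 10, minimum total 15) and the robust quasi-likelihood test. A gene was called at a Benjamini-Hochberg adjusted p under 0.05 over all tested genes. SE is the log2 fold change over the square root of F. CPM are TMM scaled. The code was tested on simulated data. Alternatives used DESeq2 1.42.0, limma 3.58.1 voom, other scaling, no filter, transcript length offsets, a replicate block and fewer libraries.

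Named genes were the 10 genes, the 3 genes of the genotype, up to 3 called genes per pathway list with the smallest adjusted p, and the 5 genes most like the 7 oil body genes (average log2 CPM of at least 3, pseudocount 0.5). EM6, BETA-VPE, ZOU, ALE1, PHE1, FUL, CAB1, RBCS1A, AT3G18570 and AT1G48990 were named after their values were seen. So were CLO3, CLO4, AT1G70680, AT2G25890, DELTA-VPE, TT10 and GRP17. The values of LEC1, LEC2, FUS3 and ABI3 were likewise added after they were seen. The genes and lists were chosen with earlier results of these data known.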

Additional observations from a re-analysis of the deposited data

How the results depend on the processing

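Over 17 alternatives, HSD1 stayed higher in direction (log2 fold change 0.35 to 0.45) and OLEO1, OLEO4, AT3G01570, CLO1 and FAE1 stayed lower, while the log2 ratio to the embryo markers ranged from 0.64 to 0.70 for HSD1 with 1 library left out, and changed sign near 0 for OLEO4, AT3G01570 and CLO1. No replicate pairing was found: deviations of same-numbered libraries correlated at −0.364, −0.188 and −0.116. With the replicate number as a block nonetheless, 475 genes were higher and 320 lower, and the seed oil genes had 0 higher and 0 lower calls (adjusted p from 0.0501 for HSD1 to 0.171 for FAE1 among those 6). Limma voom called 2137 genes higher and 1986 lower. The transcript length correction called 1763 and 1548, with 8 seed oil genes lower, among them OLEO2 (−0.23), OLEO3 (−0.26) and WRI1 (−0.17). Without replicate 1 of both groups 3191 were higher and 3301 lower. Library totals gave 1252 higher and 671 lower, against 1018 and 847. Leaving out 1 library at a time gave 578 to 1534 genes higher, 426 to 1468 lower, and 3 to 5 seed oil genes lower, with 3 without mutant-labelled replicate 2 and 4 without mutant-labelled replicate 3 or WT replicate 2. OLEO2 turned to 0.0375 without both replicates 1. DGAT1 turned to 0.027 with library totals and 0.0243 with the length correction, and ranged from −0.0505 to 0.0327 with 1 library left out. With the listed isoform, WRI1 in WT was 95.1 CPM per kilobase, against 71.2. The causes were not tested.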
